A study of Arabidopsis thaliana with 6 samples.

Results

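The brightest transcripts of xylem pole pericycle cells held in arrest on NPA were described from the 2 arrays taken before auxin was given. Probe sets, the groups of probes that stand for transcripts on an Affymetrix array, were ranked by the lower of their 2 signals at 0 h, with Affymetrix control probe sets left out. The 500 highest of 22746 ranked probe sets, or 2.20%, are the members. Of these, 193 carried 1 gene name that matched a RefSeq locus, each locus once, and the gene functions below rest on them. A further 22 carried several gene names, 284 were unnamed here, and 1, ccb382, had a name with no RefSeq match. Named members are therefore a minority of the list and no random sample of it.

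All cells came from Arabidopsis thaliana line J0121, an enhancer trap line whose GFP marks the xylem pole pericycle, and were collected by fluorescence-activated cell sorting after root cells had been released. Seedlings of all groups grew on 10 µM NPA, an inhibitor of polar auxin transport. The 0 h group was harvested at 72 hours after germination without NAA. The other groups received 10 µM NAA, a synthetic auxin, for 2 h (age 74 h) or 6 h (age 78 h), and every group had 2 arrays that the labels call biological replicates. The study's design places the 0 h cells before entry into S phase, the 2 h cells at the response to auxin and that entry, and the 6 h cells at the step from G2 into mitosis. The amount of total RNA before labelling was below detection, per the labels, and 1 enhancer trap line stands for the cell type. There was no untreated group without NPA, so the 0 h list describes cells on NPA and not a response to it.

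The xylem pole pericycle is the cell layer of the root from which lateral roots arise in Arabidopsis. Its cells lie inside the endodermis and opposite the xylem poles. Auxin releases some of them into the cell cycle, and blocking auxin transport with NPA holds lateral root formation back until auxin is supplied. In most plant cells the brightest array signals come from genes of general upkeep, such as ribosomal proteins, glycolytic enzymes and respiratory subunits.

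Every member had a signal of at least 2136 on both 0 h arrays. That floor was 19.4 times the median of all ranked probe sets on replicate 1 and 25.6 times the median on replicate 2, which were 109.8 and 83.4. The highest member signals were 40068 on replicate 1 and 28250.0 on replicate 2. Members held 35.3% and 32.6% of the summed signal of the 0 h arrays. Their share was 30.9% and 33.8% on the 2 h arrays and 26.1% and 29.0% on the 6 h arrays. On the 1 array with deposited detection calls, replicate 1 at 2 h, all 500 members were called present, against 54.8% of all probe sets.

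The 2 arrays at 0 h agreed less well at the top than the later pairs did. The 500 brightest probe sets of each array taken alone shared 365 at 0 h, against 410 at 2 h and 420 at 6 h. The median fold between the 0 h arrays was 1.29 over the members. In all, 31 members were over 2-fold brighter on replicate 1, 15 were over 2-fold brighter on replicate 2, and 5 differed over 3-fold. The 18 hybridisation control probe sets had a geometric mean of 13624 on replicate 1 and 2609 on replicate 2 at 0 h. On the later arrays it was 1780.2 and 6000.5 at 2 h and 2798 and 10425 at 6 h. Actin control probe sets near the 3′ end outshone those near the 5′ end by a ratio, which rises as RNA or cDNA gets shorter, of 2.22 and 1.40 for the 0 h arrays, 2.98 and 1.38 for the 2 h arrays, and 4.48 and 3.84 for the 6 h arrays. The same ratio for GAPDH was 5.78 and 2.68, 4.73 and 3.93, and 4.37 and 3.42 in that order, and for ubiquitin 8.31 and 5.99, 6.13 and 9.71, and 8.81 and 10.7. Only the actin ratio was higher on both 6 h arrays than on all earlier ones. The controls differed between arrays, and their part in the results was not tested. A signal also depends on how well each probe set binds its target, so a rank is a description of brightness and not a count of transcripts. In sorted cells, fewer cells of a type and less RNA per cell cannot be told apart.

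By role, ribosomal proteins were the most frequent class among the named members. Cytosolic ribosomal proteins made up 35 of 193 genes (18.1%, 95% Wilson interval 13.3 to 24.2%, which covers counting error only). Enzymes of primary metabolism followed with 24 (12.4%), mitochondrial respiration with 15 (7.77%) and redox and detoxification enzymes with 14 (7.25%). The primary metabolism class was drawn broadly, and also holds HCT of lignin precursor synthesis and OPCL1 of jasmonate synthesis. Cell wall and small secreted proteins had 12 genes, and so did signalling and transcription. Proteases, folding and protein traffic had 11, stress and desiccation proteins 8, plastid-encoded transcripts 8, membrane transport 7, and translation factors 4. Another 15 had a role outside these classes and 28 had no role assigned. Apart from the plastid-encoded transcripts, the share of each class on the whole array was not analysed here, so these shares do not show that a class is more frequent at the top than elsewhere.

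**Figure D1:**
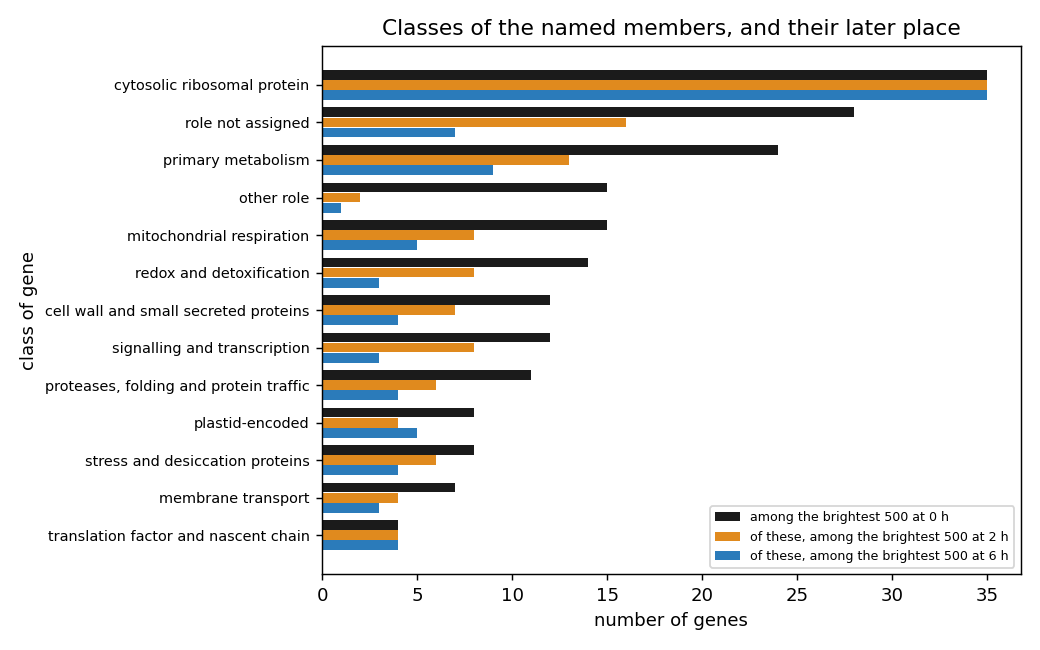
Number of named members in each class of gene (horizontal axis, number of genes) at 0 h (black), and how many of the same genes were also among the brightest 500 at 2 h (orange) and 6 h (blue). All 35 ribosomal protein genes stayed among the brightest 500, while 3 of the 14 redox genes did at 6 h.

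The very top of the list held genes of several classes. Of the 25 highest-ranked named genes, COR47 came first at rank 2 of all probe sets and AT4G24160 last at rank 79. The ribosomal proteins entered at rank 41 and had 6 genes among the first 100, against 8 for primary metabolism, 4 for cell wall and secreted proteins, and 3 each for redox enzymes, stress proteins, proteases and traffic proteins, and genes with no role assigned. The 1 probe set ranked above COR47 is unnamed here.

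**Figure D2:**
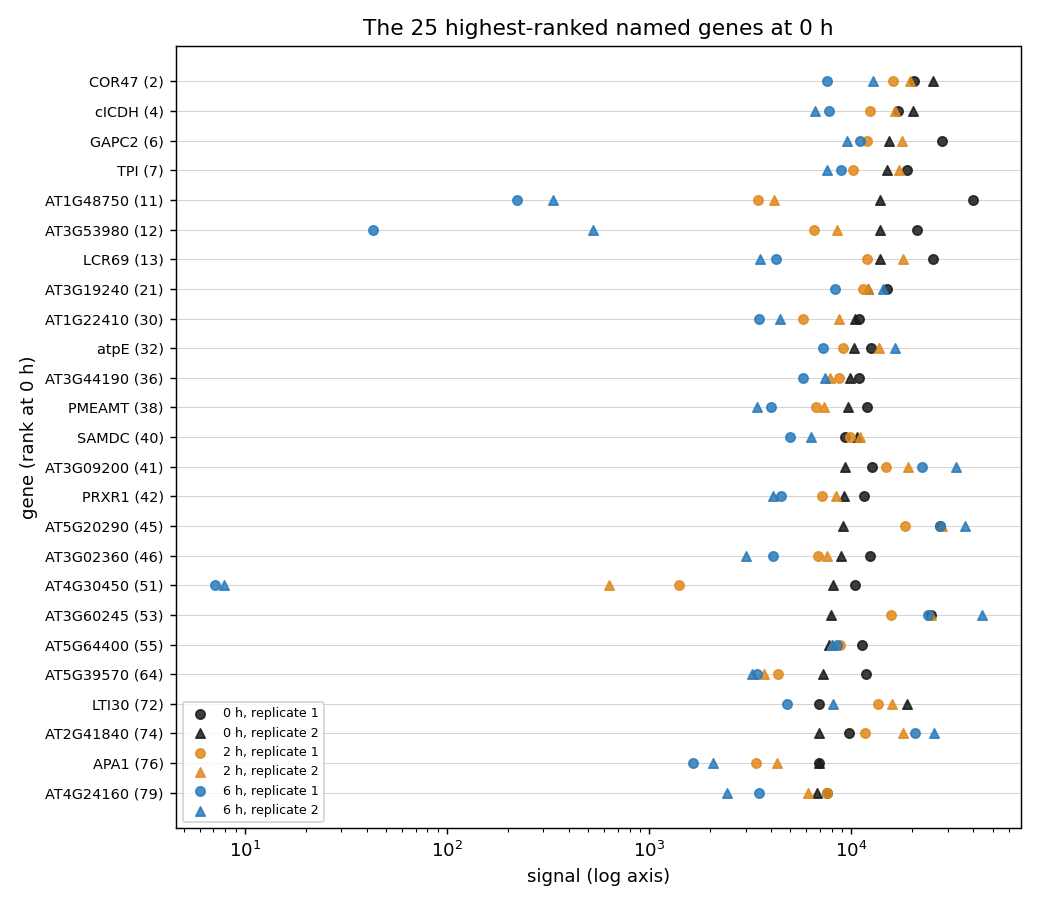
Signal on each of the 6 arrays (horizontal log axis) for the 25 highest-ranked named genes, with the rank at 0 h in brackets. Black marks are 0 h, orange 2 h and blue 6 h, with circles for replicate 1 and triangles for replicate 2. AT1G48750, AT3G53980 and AT4G30450 lie far to the left at 6 h, with 7.1 and 7.9 for AT4G30450.

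The later arrays serve as a backdrop. Of the 500 members, 320 (64.0%) were also among the brightest 500 by the same ranking at 2 h, 222 (44.4%) at 6 h, and 210 (42.0%) at both. A list picked as bright at 0 h will hold fewer of its members at other times from the choice alone, so contrasts with 0 h were not tested. The contrast of 6 h with 2 h uses neither 0 h array in its means, and all 500 members entered it. The choice can still bear on this contrast, since by the counts above the 2 h arrays lay nearer to 0 h than the 6 h arrays. The 0 h arrays also enter its filter and its estimate of the spread. How much of the members' fall from 2 h to 6 h comes from the choice was not tested. Across all 13647 probe sets tested with limma, 3.13% were called higher and 5.59% lower at 6 h, at a Benjamini-Hochberg adjusted p under 0.05. Among the members 136 (27.2%) were lower, 1 unnamed probe set was higher, and 363 did not pass. The median log2 change of the members was -0.64, against 0.10 over all probe sets tested. With the arrays centred on their median these became -0.79 and -0.05. The sign of the members' median was the same within the pair numbered 1 (-0.62) and the pair numbered 2 (-0.70). Leaving out 1 array of the contrast at a time gave 83 lower members without replicate 1 at 2 h, 89 without replicate 2 at 2 h, 87 without replicate 1 at 6 h and 78 without replicate 2 at 6 h. Among the 193 named members 48 fell and 0 rose by limma's adjusted p. At an unadjusted limma p under 0.05, 83 of them were lower and 6 higher at 6 h.

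**Figure D3:**
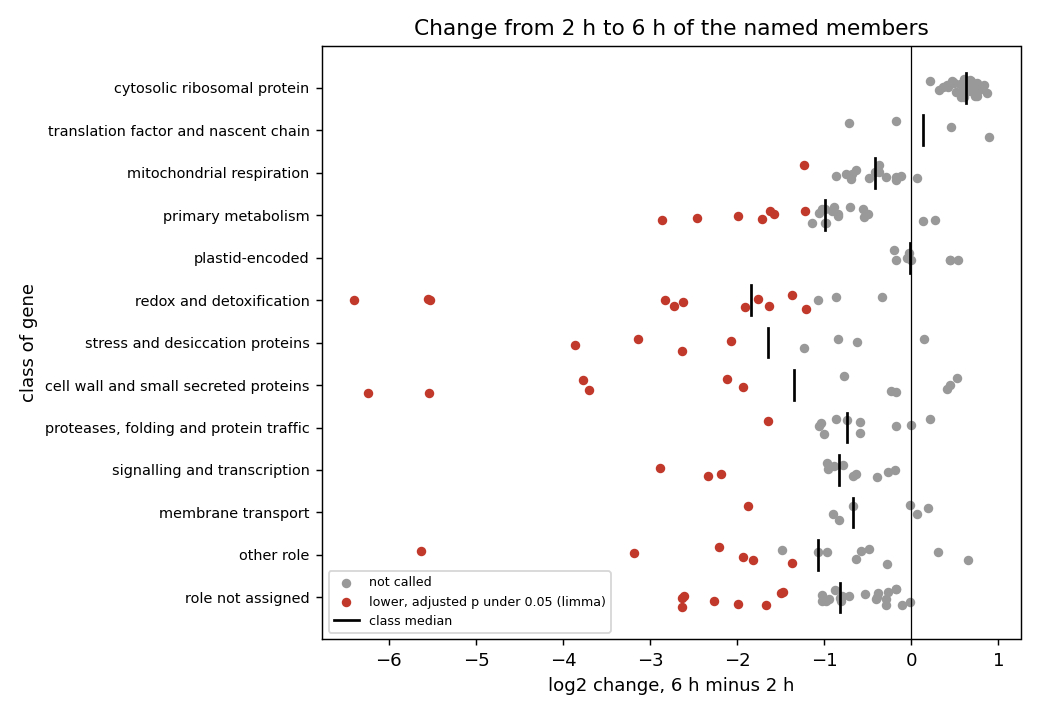
Log2 change from 2 h to 6 h (horizontal axis) of each named member, by class of gene. Red points passed the limma test at an adjusted p under 0.05, grey points did not, and black bars are class medians. The 35 ribosomal protein genes all lie above 0 with none called, and 11 of the 14 redox genes are called lower.

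Enzymes of central carbon metabolism stood among the brightest. The second named gene was cICDH, cytosolic NADP-dependent isocitrate dehydrogenase, which makes NADPH in the cytosol, with 17008 and 20191 at 0 h. Enzymes of glycolysis followed, GAPC2, a cytosolic glyceraldehyde-3-phosphate dehydrogenase, with 28186 and 15368, and TPI, triose phosphate isomerase, with 18873.5 and 14988. The oxidative pentose phosphate pathway was represented by AT3G02360, a 6-phosphogluconate dehydrogenase, with 12326.5 and 8868. These 4 genes were all bright on both arrays, with GAPC2 the least even between them. None of the 4 passed the test of 6 h against 2 h. For GAPC2 the signals were 11903 and 17745 at 2 h and 11040 and 9511 at 6 h, a log2 change of -0.50 ± 0.41 (SE, 2 arrays per time; limma adjusted p = 0.503).

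Further biosynthetic enzymes ranked in the first 50. AT1G22410 encodes DAHP synthase, which opens the shikimate pathway toward aromatic amino acids and lignin precursors, and had 10905 and 10478. PMEAMT, a phosphoethanolamine methyltransferase that leads to phosphocholine for membrane lipids, had 11981 and 9596. SAMDC, S-adenosylmethionine decarboxylase of polyamine synthesis, had 9344.5 and 10652. Each pair lay close together. From 2 h to 6 h the estimates were -0.84, -0.91 and -0.89 in that order, and none of the 3 passed the test. For SAMDC the signals were 9797 and 11022 at 2 h and 4995 and 6320 at 6 h (log2 -0.89 ± 0.33 SE, limma adjusted p = 0.134). Of the 24 genes of the class, 7 fell between 2 h and 6 h and 17 did not pass. HCT, of lignin precursor synthesis, is among the 7, and OPCL1, of jasmonate synthesis, among the 17. The count of falls was 4, 3, 3 and 4 with 1 array of the contrast left out, in the order 2 h replicate 1, 2 h replicate 2, 6 h replicate 1 and 6 h replicate 2. The class median was -0.99, and 22 of the 24 estimates were below 0. Over all members, named or not, the median was -0.64, with 374 estimates below 0 and 126 above, and 27.2% were called lower. Whether the class differed from the other members was not tested. AT4G24160, an acyltransferase of lipid metabolism, was the highest-ranked of the 7 genes of the class that fell. It went from 7610 and 6075 to 3477 and 2431.5 (log2 -1.22 ± 0.34 SE, limma adjusted p = 0.0455). The adjusted p of AT4G24160 was 0.284 without replicate 1 at 2 h, 0.145 without replicate 2 at 2 h, 0.108 without replicate 1 at 6 h and 0.322 without replicate 2 at 6 h. It was 0.123 with no filter and 0.0969 with no intensity trend.

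Dehydrins, small hydrophilic proteins that gather in cells under cold, drought or ABA, were among the brightest stress genes. COR47, a dehydrin, had 20356 and 25275 at 0 h, then 16005 and 19518 at 2 h, and 7580 and 12815 at 6 h. LTI30, another dehydrin, was uneven at 0 h with 6938 and 18791. Its later signals were 13493.5 and 15832 at 2 h and 4815 and 8084 at 6 h, so the 0 h pair spanned the 2 h pair. SRC2, a C2-domain protein known as cold-regulated, had 6117 and 8735. None of COR47, LTI30 and SRC2 passed the test of 6 h against 2 h. The third dehydrin, AT1G54410, had 5962 and 4954 at 0 h, then 3184 and 3621 at 2 h, and 259.4 and 560.2 at 6 h, and it fell by 3.14 ± 0.38 (SE) on the log2 scale (limma adjusted p = 5.32e-04). Among all members 27.2% were called lower, against 5.59% of all probe sets tested. Of the 8 genes of the class 4 fell, the other 3 being universal stress protein family members. AT3G11930 of that family went from 1629 and 491 at 2 h to 86.5 and 36.7 at 6 h (log2 -3.86 ± 0.53 SE, limma adjusted p = 0.00105), after 3649 and 3663 at 0 h. AT2G23120, a late embryogenesis abundant protein, had 5605 and 4417 at 0 h and 4038.5 and 6741 at 6 h, and did not pass.

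Small secreted proteins held ranks 11, 12 and 13 of all probe sets. AT1G48750, of the lipid transfer protein family, had the brightest signal of any member on replicate 1, 40068, and 13834.5 on replicate 2. AT3G53980 of the same family had 21092 and 13803. LCR69, of the plant defensin family, had 25397 and 13782. All 3 were brighter on replicate 1, and AT1G48750 differed 2.90-fold between the arrays. AT4G30450, a glycine-rich protein, had 10475 and 8147 at rank 51.

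Of these, 3 had fallen far by 6 h, and AT4G30450 alone was below both array medians there. AT4G30450 went from 1400 and 634.0 at 2 h to 7.1 and 7.9 at 6 h, a log2 change of -6.24 ± 0.39 (SE; limma adjusted p = 1.28e-05). AT3G53980 went from 6568 and 8481 to 43.2 and 526.8 (-5.54 ± 0.80, limma adjusted p = 0.00148), with the 6 h arrays far apart. Its change was -3.81 without replicate 1 at 6 h. AT1G48750 went from 3462 and 4149 to 221.3 and 336.2 (-3.77 ± 0.46, limma adjusted p = 5.61e-04). In none of the 3 did the 2 h and 6 h arrays overlap, which the choice of the largest falls required. LCR69 kept 4239 and 3517 at 6 h after 11980.3 and 18045 at 2 h (-1.93 ± 0.40, limma adjusted p = 0.0114). The call of LCR69 was lost without replicate 2 of the 2 h group (adjusted p = 0.128), without either 6 h array (0.0686 and 0.117), and with no filter (0.0632). LCR68, a relative of LCR69, had 5519 and 4310 at 0 h and fell from 3996 and 3842 to 351.0 and 250.1 (-3.70 ± 0.32, limma adjusted p = 9.07e-05). Beside 27.2% of all members called lower (5.59% of all probe sets tested), 6 of the 12 genes fell and 6 did not pass. Among the latter were AT1G78040, of the Ole e 1 pollen allergen family, with 5244.5 and 6161 at 0 h and 6525 and 5005 at 6 h, and AT5G62350, of the invertase and pectin methylesterase inhibitor family, with 6504 and 3947 at 0 h and later 6844 and 9564 at 6 h.

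The 35 cytosolic ribosomal proteins are structural parts of the ribosome, which makes protein in the cytosol. The highest-ranked were AT3G09200 with 12679.5 and 9313 at 0 h, AT5G20290 with 27505 and 9133, and AT3G60245 with 24696 and 7890. The lowest-ranked, AT5G56710 at rank 497, had 2690 and 2146. In 28 of the 35 the signal was higher on replicate 1, and AT5G20290, AT3G60245 and AT1G15930 differed over 3-fold. Over the class the medians were 4718 and 3596 before NAA, 8018 and 10747 after 2 h, and 13063 and 14866 after 6 h. AT3G09200 itself had 14886 and 18991 at 2 h and 22480 and 32951 at 6 h. All 35 remained among the brightest 500 at both later times, the only class besides the 4 translation factors of which this held.

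Between 2 h and 6 h, 0 of the 35 ribosomal proteins passed limma's test in either direction, and 5 had an unadjusted p under 0.05. Their estimates ran from 0.21 to 0.87 with a median of 0.63. All 35 lay above 0 with the deposited scaling and with arrays centred on their median (median 0.49), and 34 did after quantile normalisation (median 0.34). The medians within the pairs numbered 1 and 2 were 0.72 and 0.51. Genes of this family have close copies, and a probe set can take up more than 1 of them. Of all 500 members, of any class or unnamed, 8.60% had probe set names that mark such cross-matching, against 4.67% of all ranked probe sets. The share among the ribosomal proteins alone was not analysed here. Among the translation factors, AT5G19510, a subunit of elongation factor 1B, had 4406 and 5793.5 at 0 h and 14578 and 14829 at 6 h. AT3G12390, of the nascent polypeptide-associated complex, had 2170 and 2659 at 0 h and 10813 and 13055 at 6 h. From 2 h to 6 h the estimates were 0.46 for AT5G19510 and 0.89 for AT3G12390. They were -0.71 for AT5G54940, a SUI1 translation initiation factor, and -0.17 for EIF4A-2, an RNA helicase of translation initiation. The median of the 4 was 0.14, and none passed the test.

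**Figure D4:**
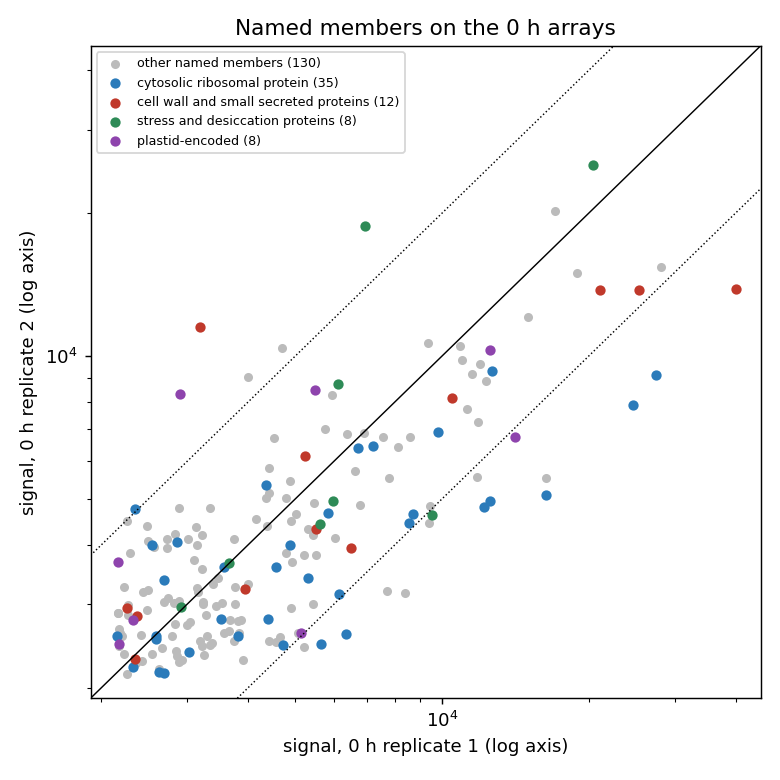
Signal of each named member on the 2 arrays at 0 h, replicate 1 on the horizontal and replicate 2 on the vertical log axis, coloured by class. The solid line marks equal signals and the dotted lines a 2-fold difference. Ribosomal proteins (blue) lie mostly on the replicate 1 side, 28 of 35, while the dehydrin LTI30 and the plastid-encoded clpP lie on the replicate 2 side.

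Mitochondrial respiration was represented by 15 genes of moderate rank. The highest-ranked was CYTC-1, cytochrome c, which carries electrons between complexes III and IV, with 7767 and 5526 at 0 h and 6588 and 6292 at 6 h. AT5G11770, a subunit of complex I, the NADH dehydrogenase that starts the chain, had 6015 and 4128.5. MPPBETA, the beta subunit of the mitochondrial processing peptidase, which in plants is part of complex III, had 3218.5 and 3557. AT2G20360, another complex I subunit, had 3236 and 3031. The pairs were within 2-fold in all 4. Of the 15, 1 fell between 2 h and 6 h and 14 did not pass, with a class median of -0.42. The share called lower was 27.2% over all members and 5.59% over all probe sets tested. The 1 that fell, the complex I subunit AT3G03100, named after its values were seen, went from 2347 and 2470 to 1126 and 927 (-1.23 ± 0.30 SE, limma adjusted p = 0.0284). This call was lost, leaving 0 of the 15, when any 1 of the 4 arrays at 2 h and 6 h was left out, and with no intensity trend.

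A few transcripts of the plastid genome were among the brightest. Of 69 plastid-encoded probe sets with 1 locus, 8 (11.6%) were members, against 1.44% of all 13436 named probe sets. The other 61 lay outside the list, and the median rank of the 69 was 2574 of 22746. atpE, which encodes a subunit of the plastid ATP synthase, had 12567 and 10315 at 0 h. psaB, a core protein of photosystem I, had 14129 and 6749. atpB, the beta subunit of the same ATP synthase, had 5474.5 and 8466. clpP, a subunit of the plastid Clp protease, had 2899 and 8301, and atpH and ndhI were members as well. Of the 8 members 3 were brighter on replicate 1, whereas 56 of all 69 were, and the choice by the lower signal bears on which of them are members. petA, at rank 501 with 3055 and 2131, was the first probe set outside the list.

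At 6 h the plastid transcripts parted by array. atpE had 7259 and 16473 at 6 h, after 9083 and 13681 at 2 h. psaB had 4407 and 10215 at 6 h, after 6939 and 8377. The class median at 6 h was 3313 on replicate 1 and 7174 on replicate 2. Within the pair numbered 1 the median log2 change from 2 h was -0.33, and within the pair numbered 2 it was 0.31. None of the 8 passed limma's test, 0 had an unadjusted p under 0.05, and the class median was -0.02. Over all 69 plastid-encoded probe sets 0 passed and 1 had an unadjusted p under 0.05, with a median of 0.41 and 55 estimates above 0. That median was -0.15 within the pair numbered 1 and 0.86 within the pair numbered 2, and 0.03 without replicate 2 at 6 h. Plastid transcripts mostly lack the long poly(A) tails of nuclear mRNA. Nuclear genes of green tissue could not be set beside them, since 0 of the 5 listed were named on the array.

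Enzymes of redox control and detoxification were bright at 0 h, and 11 of the 14 fell between the later times. The highest-ranked were AT3G44190, an FAD-dependent oxidoreductase, with 10961 and 9828.5, and PRXR1, a class III peroxidase, with 11515 and 9179. Class III peroxidases are secreted enzymes that use hydrogen peroxide, many of them in the cell wall. AT4G33420 of that family had 5467 and 4899, AT5G66390 had 5196 and 3810, and AT1G44970 had 2665.0 and 2424. MSRB5, a methionine sulfoxide reductase that repairs oxidised methionine, was uneven with 16318 and 5527.

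Of these 14 genes 3 did not pass the test and 0 rose. Lower calls made up 27.2% of all members and 5.59% of all probe sets tested. Whether the class differed from the other members was not tested. The class median was -1.84, and it was -1.71 and -2.04 within the pairs numbered 1 and 2. With 1 array of the contrast left out the count that fell was 7, 7, 7 and 8, in the order 2 h replicate 1, 2 h replicate 2, 6 h replicate 1 and 6 h replicate 2. MSRB5 had 3592.5 and 1808 at 2 h and 62.8 and 38.6 at 6 h (log2 -5.55 ± 0.51 SE, limma adjusted p = 1.15e-04). AT4G33420 went from 5828 and 4084 to 795.6 and 682.0 (-2.72 ± 0.32, limma adjusted p = 4.71e-04). AT5G66390 had 4262 and 4205 at 2 h, and 327.6 and 2.6 at 6 h (-6.40 ± 1.19, limma adjusted p = 0.00624). AT1G44970 had 1295 and 3392 at 2 h, and 203.1 and 5.0 at 6 h (-5.53 ± 1.01, limma adjusted p = 0.00581). In these 2 peroxidases replicate 2 at 6 h lay at the bottom of the scale. Without it the changes were -3.67 for AT5G66390 and -3.34 for AT1G44970, both still called. AT1G44970 was no longer called without replicate 2 at 2 h (adjusted p = 0.0504). Not every peroxidase did so, since PRXR1 had 7176 and 8417 at 2 h and 4500 and 4083 at 6 h and did not pass (-0.86 ± 0.33, limma adjusted p = 0.141).

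Proteases, folding and protein traffic had 11 members. Besides proteases and genes of the secretory route, these include a protease inhibitor, a RING ubiquitin ligase and a cytosolic HSC70 chaperone. APA1, an aspartic proteinase, had 6922 and 6883 at 0 h, then 3381 and 4285 at 2 h, and 1651 and 2058.5 at 6 h. AT3G19390, a papain-type cysteine protease, had 8597 and 6743 at 0 h and 1961 and 1169 at 6 h. CYS1, a cystatin that inhibits cysteine proteases, had 4001 and 3308 at 0 h. It was the 1 of the 11 that fell between 2 h and 6 h, from 2841 and 2467 to 1179 and 604.2 (-1.64 ± 0.36 SE, limma adjusted p = 0.0163). By comparison, 27.2% of all members and 5.59% of all probe sets tested were called lower. The call of CYS1 was lost without replicate 1 at 2 h (adjusted p = 0.127), replicate 2 at 2 h (0.0797) or replicate 2 at 6 h (0.188), and with no intensity trend (0.0584). Of the 7 transport genes 1 fell, GTR1, a glucosinolate transporter, with 2408.5 and 2581 at 0 h, then 2101 and 1187 at 2 h, and 329.1 and 555.3 at 6 h (-1.87 ± 0.37, limma adjusted p = 0.00954). Leaving out replicate 1 of the 2 h group gave GTR1 an adjusted p of 0.119, and leaving out replicate 1 of the 6 h group 0.113.

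Signalling and transcription genes entered the list from rank 162. The highest-ranked was AT3G56880, a VQ motif protein, with 9388 and 4442. AT1G18210, a calmodulin-like protein, had 5504 and 3809. STZ, a C2H2 zinc finger repressor that responds to many stresses, had 3748 and 4112.5 at 0 h, then 5442.0 and 10069.5 at 2 h, and 3030.2 and 5272 at 6 h. Of the 12 genes 3 fell and 9 did not pass. Over all members 27.2% were called lower, and over all probe sets tested 5.59%. Whether the class differed from the other members was not tested. BAT1, an acyltransferase that acts on brassinosteroids, fell from 2035 and 1747.5 at 2 h to 378.8 and 446.9 at 6 h (-2.18 ± 0.32 SE, limma adjusted p = 0.00147). WES1, a GH3 enzyme that joins auxin to amino acids, was named here after its values were seen. It had 2785 and 2572 at 0 h, then 12466 and 13313 at 2 h, and 11685 and 9769 at 6 h, so all later arrays lay above both 0 h arrays, a contrast that was not tested.

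Outside these classes, AT3G62040, a haloacid dehalogenase-like hydrolase, had 4357 and 5031 at 0 h, then 1201 and 493.9 at 2 h, and 11.8 and 9.5 at 6 h (-5.63 ± 0.41 SE from 2 h to 6 h, limma adjusted p = 3.14e-05). ZW9, a TRAF-like protein, had 2996 and 2709 at 0 h and fell from 1808 and 689.7 to 81.2 and 171.2 (-3.19 ± 0.47, limma adjusted p = 0.00158). PYK10, a beta-glucosidase of endoplasmic reticulum bodies, an abundant protein of Arabidopsis roots, had 3046 and 2753 at 0 h. It fell from 3874 and 1856 at 2 h to 370.1 and 892.1 at 6 h (-2.21 ± 0.45, limma adjusted p = 0.0110). AT3G05500, a lipid droplet-associated protein, had 4410 and 5150 at 0 h and did not pass. Among genes with no role assigned, AT3G19240 ranked highest with 15028 and 12070 at 0 h and later 8336.0 and 14266 at 6 h.

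The place of a gene among the brightest 500 at later times differed by class. Of the named members 84 were in the list at both later times, 37 at 2 h only, 3 at 6 h only and 69 at neither. Primary metabolism had 13 of 24 genes there at 2 h and 9 at 6 h, and respiration 8 of 15 and 5. Redox enzymes had 8 of 14 and 3, signalling genes 8 of 12 and 3, and genes with another role 2 of 15 and 1. Differences between classes were not tested.

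Few markers of cell type could be read at 0 h, since 9 of 49 listed genes were named on the array. Of 8 markers of the pericycle and stele only LBD16, a transcription factor of lateral root initiation, was named. LBD16 had 542.7 and 476.3 at 0 h, above the array medians and below the members' floor, and 1920.4 and 2296 at 2 h. Its signal was not steady across the groups, and 1 such gene cannot check the labelled cell type. The endodermis receptor kinase GSO1 had 601.1 and 828.6, above both medians as well, and it is the 1 of 10 endodermis markers that was named. It fell from 553.4 and 1212.5 at 2 h to 75.6 and 26.1 at 6 h (-4.04 ± 0.50 SE, limma adjusted p = 5.91e-04), beside the falls among the members, and its part in them was not tested. Both cortex markers were named, AT1G09750 with 164.6 and 137.4, above both medians, and AT1G62500 with 9.1 and 15.7, below both. Of 5 epidermis and root hair markers EXPA7 had 18.1 and 37.1 and EXPA18 101.2 and 49.9, below both medians. The phloem gene AT3G12730, 1 of 3 listed, had 53.8 and 56.0. No marker of xylem, root cap, quiescent centre or green tissue was named. Of 7 genes listed for the stress of cell isolation, STZ was a member at rank 223 and WRKY53 had 288.6 and 202.6. All groups were sorted, so what isolation adds to the 0 h list was not tested.

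**Figure D5:**
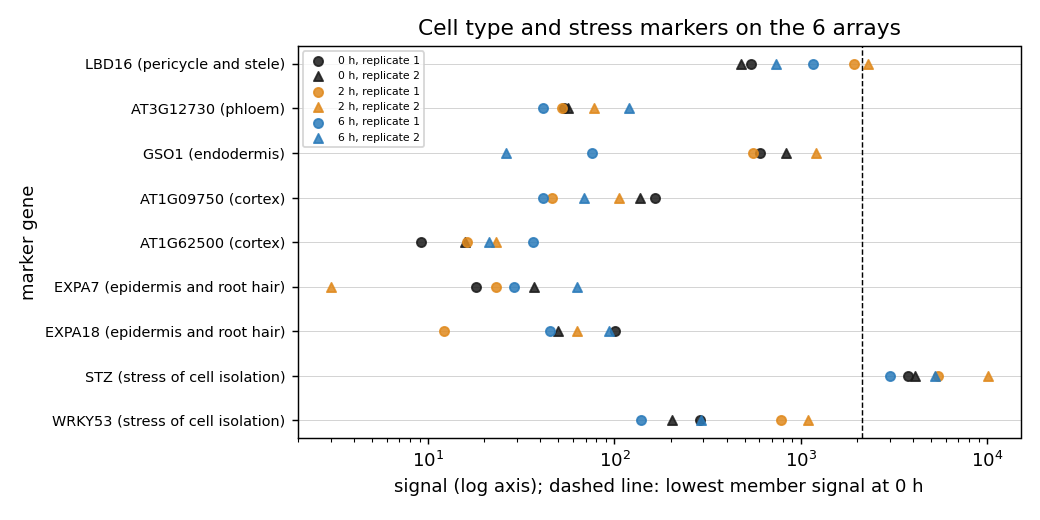
Signal of the 9 named marker genes on the 6 arrays (horizontal log axis), black for 0 h, orange for 2 h and blue for 6 h, with circles for replicate 1 and triangles for replicate 2. The dashed line is the lowest member signal, 2136. At 0 h only STZ lies right of it on both arrays.

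The edge of the list is a matter of count. AT1G19450, of the sugar transporter family, closed it at rank 500 with 2258 and 2136. Just outside were petA at rank 501 and ATSBT5.2, a subtilase, at rank 502 with 2126 and 2521. ATSBT5.2 had 108.0 and 202.1 at 2 h and 10.7 and 10.8 at 6 h.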

How the data were processed

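Signals of 6 one-colour arrays were used as deposited: linear intensity values, 1 per probe set, for which the submitters' processing notes name MAS5. Each array's mean after trimming 2% of values at each end was 250.0, read from the values. A detection p-value and call per probe set were deposited for 1 array (2 h, replicate 1), and only the calls were used, as a description. Arrays have no read depth, and the number of arrays limits the precision.

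Values were taken as log2(signal + 5), so folds of dim genes are understated. Probe sets with a mean above the 40th percentile were fitted with limma 3.58.1 in R 4.3.3 (lmFit, eBayes with trend) on all 6 arrays, with 3 residual and 8.26 prior degrees of freedom. Adjusted p-values are Benjamini-Hochberg over 13647 probe sets. The fit was also run on simulated data with independent noise and no differences between arrays, which cannot test the calls made on these arrays. Nothing states whether replicates came from separate plants beyond the word biological.

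The members and lists were chosen with earlier results of these data known. A keyword rule for classes could not be applied, because the gene table used for names, of NCBI RefSeq, held no descriptions. Roles were therefore assigned by hand from general knowledge after the values had been seen, and less fully for longer or alternative lists. Genes named were the 25 highest-ranked, up to 6 per class, the 10 largest falls, the list's edge and the markers. No gene sequences are shown, and unnamed probe sets are not interpreted.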

Additional observations from a re-analysis of the deposited data

How the results depend on the processing

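The main count at 6 h versus 2 h was 136 lower and 1 higher. The higher count was 0 with no filter, quantile normalisation, median-centred arrays, no intensity trend or probe sets ending in s_at and x_at left out, and 3 with the brightest 1000. The lower count was 65 with the brightest 250 and 234 with the brightest 1000, lists of other lengths. Leaving out 1 array gave 78 to 164 lower and 0 to 1 higher, where a lone array is assumed to vary like the other groups. The fit with a replicate block gave 166 lower and 2 higher. Same-numbered arrays had deviations correlated at 0.0565, 0.105 and 0.153, and with 2 numbers the pairing was not taken as given.

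The share of ribosomal proteins was 13.3% in the brightest 1000. Primary metabolism had 19.5% in the brightest 250 and 8.37% in the brightest 1000, stress proteins 8.54% in the brightest 250, and other roles 2.44% and 4.68%. Genes with no role assigned were 18.69% and 21.81% when ranked by replicate 1 or 2 alone and 32.0% in the brightest 1000. Roles were assigned less fully outside the main list, which lowers class shares there. Ranking by replicate 2 alone kept 404 members, by replicate 1 alone 424, and by the mean 452. Of 73 named genes tested 18 were called, 13 of these under all 16 alternatives, and 0 reversed. The 18 include the largest falls, chosen for their size and for 2 h and 6 h arrays that did not overlap. That choice favours calls that hold, so the tally of 13 does not measure how well calls hold among the members at large. The lower counts over all members, given above, bear on that more directly. The 2 arrays per time limit all of these values.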
